A study of Mus musculus with 82 samples.

Results

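Cyp2b9, Cyp2b13 and Cyp2a4 encode cytochrome P450 enzymes of mouse liver that hydroxylate steroids. The 3 genes were chosen by their symbol in the platform annotation, and each is read by 1 probe, so they make up 3 of 21936 probes on the arrays and 3 of the 3439 features that carry a gene name. Cytochrome P450 enzymes sit in the endoplasmic reticulum of hepatocytes and add oxygen to steroids, bile acids, fatty acids and drugs. In rodents many of them differ between the sexes, and the pattern of growth hormone release, through the receptor Ghr, the kinase Jak2 and the factor Stat5b, is known to set much of that difference. Cyp2a4 is known as a testosterone hydroxylase, and Cyp2b9 and Cyp2b13 as forms found mainly in female mouse liver.

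The livers came from BXD recombinant inbred strains, which carry mosaics of the C57BL/6J (B6) and DBA/2J (D2) genomes, and from both parents, at 10 to 20 weeks of age. RNA of the BXD livers and of B6 male liver was hybridised on 2-colour arrays against 1 common RNA, a mix of B6 embryos of day 17.5. The groups were 40 arrays of BXD females and 32 of BXD males from 17 strains, and 2 arrays of B6 males, all against the embryo mix. A further 6 arrays set B6 liver directly against D2 liver, 3 labelled female and 3 labelled male, and 2 arrays, 1 per labelled sex, set RNA called enriched from B6 against the same from D2; the kind of enrichment was not given in the sources used here. By contrast with the titles, the design text speaks of unfasted livers from 3 males for each kind of mouse and of 18 BXD strains; the titles name both sexes, and 17 strains were analysed here. Most arrays of a strain and sex that share a replicate number are titled as an array and its dye swap. They were treated as technical swaps of the same RNA. Whether the animals of a strain were pooled is not stated either, so the spread between arrays of a strain may be technical.

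All values are log2 ratios of liver over embryo mix, or of B6 over D2. Signal intensities were not used here, so a ratio near 0 shows equal signals and does not show whether either was above background. A ratio to the mix is also not an amount, and its size was not compared between the genes. The dyes in the labels do not settle the direction, which was read from hepatocyte and embryonic genes and held on 74 of 74 arrays against the mix; it is therefore the likely direction. The 9 measured hepatocyte markers averaged between 3.20 and 3.77 in the livers of BXD females and between 3.27 and 3.64 in those of males.

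The 3 genes lie on chromosome 7 in the order Cyp2b13, Cyp2b9 and Cyp2a4. The RefSeq annotation (GRCm38.p6) places pseudogenes, the receptor gene Vmn1r184 and a long non-coding RNA between them. Their promoter windows are 300 bases around the annotated start on the plus strand from RefSeq. They are shown because those of Cyp2b9 and Cyp2b13 are nearly the same, while that of Cyp2a4 differs. All 3 genes were higher in females on average, and a part of the windows in that was not tested. The windows are chr7:26173159-26173458 for Cyp2b9, chr7:26061245-26061544 for Cyp2b13 and chr7:26306942-26307241 for Cyp2a4. Capitals mark the bases that differ between Cyp2b9 and Cyp2b13, and in Cyp2a4 a match to the hexamer AGGTCA on the other strand.
Cyp2b9: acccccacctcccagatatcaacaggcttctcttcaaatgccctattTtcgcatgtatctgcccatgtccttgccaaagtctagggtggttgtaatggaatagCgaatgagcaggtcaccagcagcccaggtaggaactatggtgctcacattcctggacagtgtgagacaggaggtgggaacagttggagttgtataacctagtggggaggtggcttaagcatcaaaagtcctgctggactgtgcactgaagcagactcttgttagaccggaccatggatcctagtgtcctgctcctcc
Cyp2b13: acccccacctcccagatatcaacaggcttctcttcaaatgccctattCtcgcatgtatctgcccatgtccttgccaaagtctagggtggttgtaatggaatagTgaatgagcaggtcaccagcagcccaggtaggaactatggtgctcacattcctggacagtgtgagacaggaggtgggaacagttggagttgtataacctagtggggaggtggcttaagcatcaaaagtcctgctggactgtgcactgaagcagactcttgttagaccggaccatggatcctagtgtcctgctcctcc
Cyp2a4: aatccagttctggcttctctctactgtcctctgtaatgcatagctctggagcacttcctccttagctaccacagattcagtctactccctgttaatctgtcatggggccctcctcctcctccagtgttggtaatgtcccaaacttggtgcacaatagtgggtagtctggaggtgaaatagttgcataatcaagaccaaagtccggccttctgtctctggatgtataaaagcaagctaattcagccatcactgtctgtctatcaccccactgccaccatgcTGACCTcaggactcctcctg

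The windows of Cyp2b9 and Cyp2b13 were identical at 298 of 300 bases and differed by T48C and C104T, with the base of Cyp2b9 first and positions counted from 1 at the 5′ end of the window. The window of Cyp2a4 matched that of the related gene Cyp2a5, a coumarin hydroxylase, at 294 of 299 bases, and that of Cyp2b9 at 29.4% of 296 bases. On either strand, each of the 3 windows held 1 match to AGGTCA, a hexamer bound by nuclear receptors. It lay at bases 113 to 118 in Cyp2b9 and Cyp2b13 and at bases 281 to 286 in Cyp2a4, and 16.3% of all 32851 RefSeq windows held it. In Cyp2a4 the match follows an ATG near the 3′ end of the window, so it may lie in coding sequence. A shared role of these matches was not tested. None of the 3 windows held the STAT5 type motif TTCNNNGAA, present in 8.30% of all windows, the HNF4 type CAAAGTCCA (0.475%) or the FOXA type TGTTTAC (3.65%). The transcripts of near-identical genes can share a probe. The probe sequences were not used here, so cross-hybridisation between Cyp2b9 and Cyp2b13, or of Cyp2a5 RNA to the probe of Cyp2a4, was not tested.

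Genes of the sex chromosomes were used to check the sex labels. Across the BXD strains Uty and Eif2s3y, which are Y-linked, were lower in females by -0.70 ± 0.74 and -0.73 ± 0.42 (log2 female minus male, SD, n = 17 strains). They were lower in 14 and 15 of 17 strains, and in BXD8, BXD18, BXD27 and BXD28 at least 1 of them went the other way. Ddx3x and Eif2s3x, which escape X inactivation, were higher in females in 17 of 17 strains. The Uty probe still gave ratios of liver over mix of 0.67 ± 0.56 in female strains, up to 1.84. In male strains it gave 1.38 ± 0.56 (SD, n = 17 strains each). Eif2s3y stood at -0.22 ± 0.27 in female and 0.52 ± 0.45 in male strains. Whether the Uty probe reads Y-linked RNA alone was not tested, so Uty is a limited check of the labels.

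The direct arrays labelled female went against their labels for the Y-linked genes, with the limit on Uty given above. On the 3 arrays labelled female the Y-linked Uty was higher in B6 by 0.57, 0.57 and 1.37 and Eif2s3y by 0.74, 0.69 and 0.56. Across all 21915 features these arrays correlated with the BXD difference of female minus male at r = -0.35, -0.35 and -0.20, against 0.14, 0.07 and -0.03 on the arrays labelled male. On the arrays labelled male Uty read -0.11, -0.06 and 0.33 and Eif2s3y 0.007, 0.08 and 0.21. The X-linked genes did not separate the labels: Ddx3x read -0.02, -0.48 and -0.63 on the arrays labelled female and 0.25, -0.57 and -0.41 on those labelled male. Eif2s3x read 0.17, -0.43 and -0.44 on the arrays labelled female and 0.30, -0.04 and 0.05 on those labelled male, so both genes overlapped. Features are not independent, so these correlations describe the arrays. Results of B6 against D2 are therefore given with both sets of arrays and for each set alone.

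Cyp2b9 was higher in female than in male liver in every BXD strain. On the log2 scale of liver over mix, its strain values in females ran from 1.97 in BXD8 through a median of 2.72 to 2.89 in BXD28, against -0.26 in BXD14, a median of 0.37 and 1.33 in BXD15 in males. The lowest female strain lay above the highest male strain, so the sexes did not overlap. The mean was 2.61 ± 0.24 in females and 0.42 ± 0.46 in males (SD, n = 17 strains each). The difference within strains was 2.19 ± 0.51, a 4.55-fold higher ratio in females (95% confidence interval 1.94 to 2.43 on the log2 scale, limma adjusted p = 3.47e-10).

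Cyp2b13, the nearest relative of Cyp2b9 here, was also higher in females in 17 of 17 strains. Its values in females ran from 1.003 in BXD8 through a median of 2.41 to 3.22 in BXD27, against -0.02 in BXD19, a median of 0.22 and 0.33 in BXD31 in males. All male strains thus lay close to equal signal with the embryo mix, and the sexes again did not overlap. The mean was 2.35 ± 0.54 in females and 0.20 ± 0.09 in males (SD, n = 17 strains each). The difference within strains was 2.15 ± 0.52, or 4.45-fold (95% confidence interval 1.90 to 2.40, limma adjusted p = 6.21e-10).

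Cyp2a4, the testosterone hydroxylase, was far above the embryo mix in both sexes and higher in females on average. Its values in females ran from 4.87 in BXD16 through a median of 5.25 to 5.92 in BXD12, against 2.996 in BXD2, a median of 4.24 and 5.48 in BXD31 in males. The sexes overlapped, with 4 of 17 female strains above the highest male strain. The mean was 5.31 ± 0.29 in females and 4.30 ± 0.63 in males (SD, n = 17 strains each). The difference within strains was 1.01 ± 0.73, or 2.02-fold (95% confidence interval 0.67 to 1.36, limma adjusted p = 2.02e-04).

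**Figure D1:**
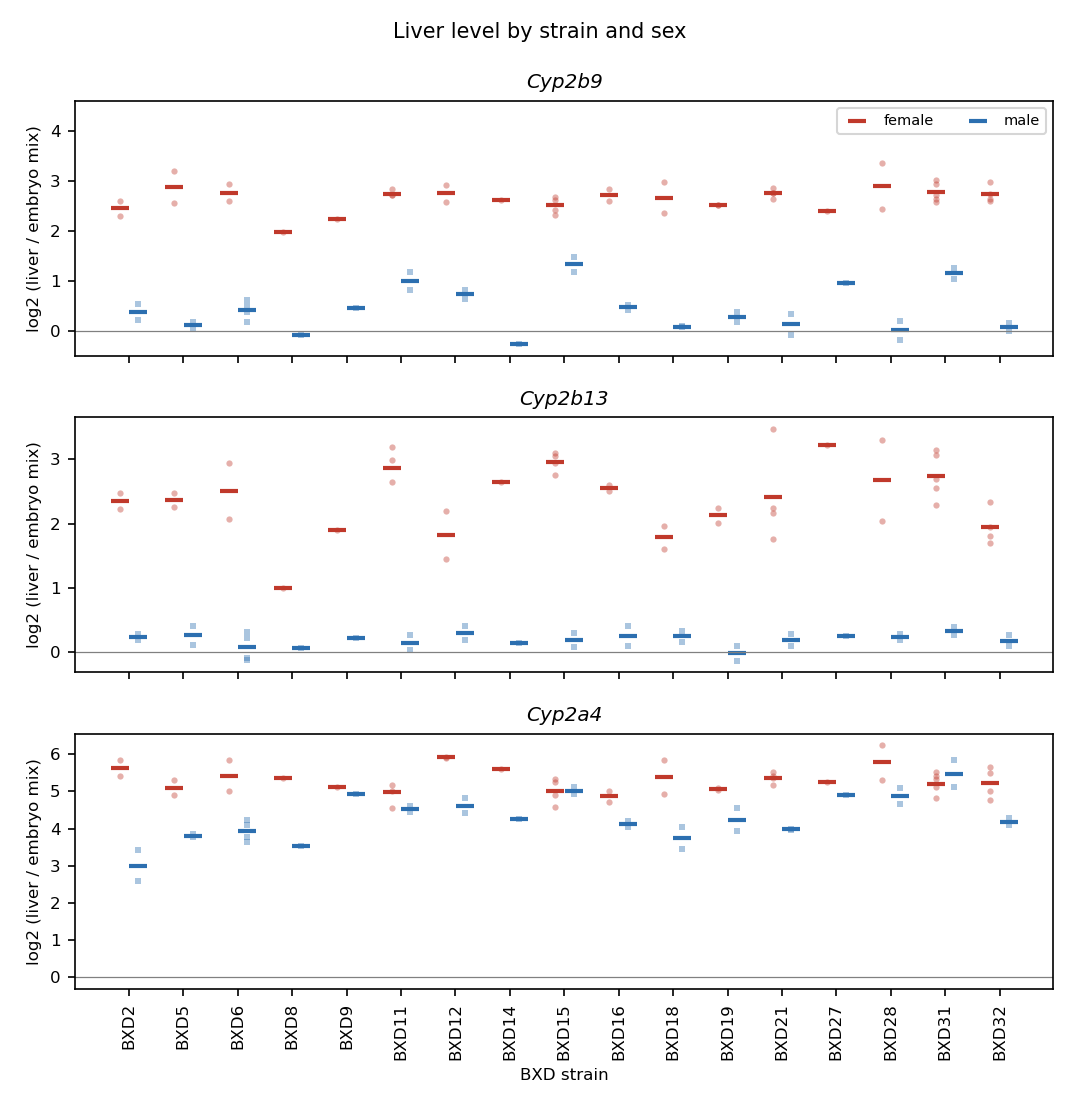
Log2 ratio of liver over embryo mix for each gene (vertical axis, 1 panel per gene) in 17 BXD strains (horizontal axis), with females in red on the left and males in blue on the right of each strain. Small symbols are single arrays and dashes the value per strain and sex: Cyp2b9 in females stays between 1.97 and 2.89, above all male strains, while male Cyp2b9 spreads from -0.26 to 1.33 and male Cyp2b13 from -0.02 to 0.33.

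All 3 genes were thus called higher in females, in a comparison where 33.7% of all 21915 features were called. The features called higher in females made up 16.5% of the 21915 and those called lower 17.2%. By size of the difference Cyp2b9, Cyp2b13 and Cyp2a4 ranked 6, 7 and 35 among the 21915 features. Every female strain value lay above every male strain value for Cyp2b9 and Cyp2b13, as it did for 8 features in all, or 0.0365%. A female value above the male value in each of the 17 strains occurred in 291 features (1.33%). In bulk liver, fewer cells of a type and less RNA per cell cannot be told apart.

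Male and female arrays of most strains lay in different stretches of consecutively deposited arrays, which are no labelled batch. With the stretch as a term the differences were 1.90, 2.08 and 0.72 for Cyp2b9, Cyp2b13 and Cyp2a4, and all 3 remained called (limma adjusted p = 6.08e-06, 2.11e-06 and 0.0379). Of the stretches 5 contained both sexes, and inside them the difference was 1.45 to 2.51 for Cyp2b9, 2.01 to 2.98 for Cyp2b13 and 0.28 to 1.17 for Cyp2a4. In 3 of these 5 stretches the females and males were of different strains. Within the 3 strains BXD8, BXD9 and BXD14, which had both sexes in 1 stretch, the mean differences were 2.24, 1.70 and 1.12, and in BXD27, likewise in 1 stretch, 1.45, 2.98 and 0.34.

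The sex difference varied in size between strains, and differently for each gene. Cyp2b9 differed least in BXD15, at 1.18, and most in BXD28, at 2.88. Cyp2b13 differed least in BXD8, at 0.93, and most in BXD27, at 2.98, and each of these rests on 1 array per sex in 1 orientation. In the strains measured in both orientations Cyp2b13 differed by 1.53 in BXD12 up to 2.77 in BXD15. For Cyp2a4 the difference was largest in BXD2, at 2.63, and it was -0.28 in BXD31 and close to 0 in BXD15, so 15 of 17 strains were higher in females. BXD31 had Cyp2a4 values of 5.52, 5.33, 5.41, 4.83 and 5.13 on its 5 female arrays, against 5.12 and 5.83 on its 2 male arrays. These ranges overlap. A strain by sex interaction was not tested, because most strains gave 1 value per sex.

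**Figure D2:**
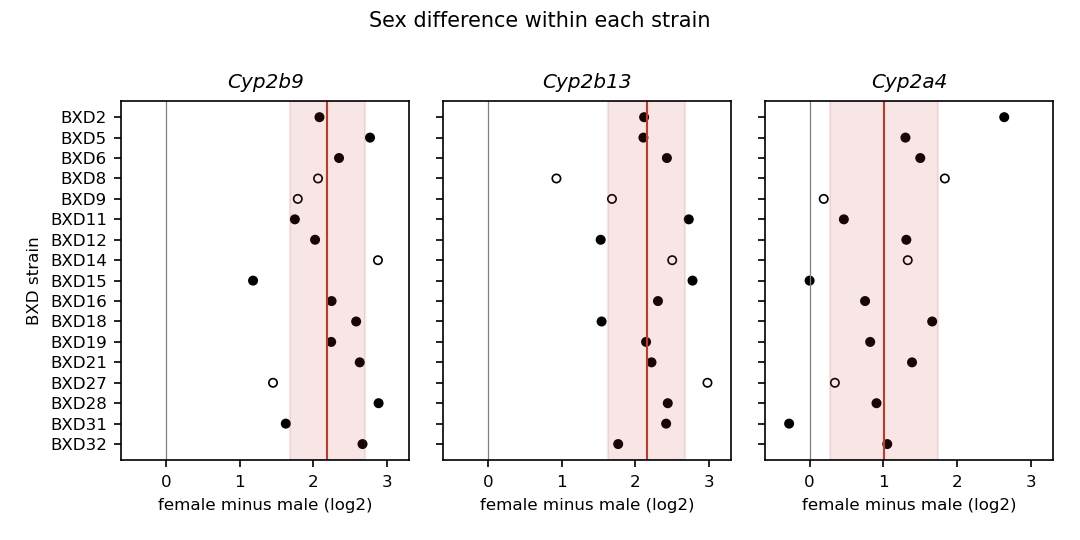
Female minus male log2 difference within each of 17 BXD strains (rows), 1 panel per gene, with filled circles for the 13 strains measured in both orientations and open circles for the 4 measured in 1. The red line is the mean and the shaded band 1 SD: the means are 2.19 for Cyp2b9, 2.15 for Cyp2b13 and 1.01 for Cyp2a4, and Cyp2a4 alone reaches 0 or below, in BXD15 and BXD31.

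Among strains, Cyp2b9 and Cyp2a4 spread more in males and Cyp2b13 more in females; the difference in spread was not tested. For Cyp2b9 the SD across strains was 0.24 in females and 0.46 in males, beside an SD between arrays of a strain of 0.18 in each sex. For Cyp2a4 it was 0.29 in females and 0.63 in males, with an array SD of 0.31 in each sex. Cyp2b13 had 0.54 in females and 0.09 in males, and its array SDs of 0.42 in females and 0.07 in males differed in the same way. The array SDs rest largely on dye swaps that share a replicate number, so they do not measure the spread between animals. They were taken after the mean of each orientation was removed, so they leave out the dye effect. The strains measured in 1 orientation still carry that effect in their values. Female Cyp2b9 in the 13 strains measured in both orientations spread less, with an SD of 0.14. The ratio of highest to lowest strain in males was 3.01-fold for Cyp2b9, 5.59-fold for Cyp2a4 and 1.27-fold for Cyp2b13.

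Males of a few strains stood at the top for Cyp2b9. BXD15 males read 1.48 and 1.18 on their 2 arrays, BXD31 males 1.04 and 1.26, and BXD11 males 0.81 and 1.18. BXD27 males read 0.95 on 1 array, and BXD12 males 0.82 and 0.63. At the other end BXD14 males read -0.26 and BXD8 males -0.09, on 1 array each, and BXD28 males 0.20 and -0.19. All arrays of the first 5 strains lay above all arrays of the last 3. The strains were picked by these same values, so this separation is no test of a strain difference. Where a strain has 2 arrays here, they are a dye-swap pair of 1 replicate number and were not counted as separate livers. Along the order of the 17 male strains, though, only 2 of 16 gaps between neighbours exceeded the array SD, so most neighbours could not be ordered. BXD27 at the top, and BXD8 and BXD28 at the bottom, are also among the strains named above where at least 1 Y-linked gene went the other way.

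For Cyp2a4 in males BXD31 was highest, at 5.83 and 5.12, and BXD15 followed at 5.11 and 4.93. BXD2 was lowest, at 3.41 and 2.58. Between neighbouring male strains 2 of 16 gaps exceeded the array SD, and in females 0 of 16 did. Neighbouring female strains thus could not be ordered, although the whole range was wider than the array SD. Both arrays of BXD12, at 5.91 and 5.94, lay above all arrays of BXD16, BXD11, BXD15 and BXD19. These strains too were picked by their values, so this is no test. For Cyp2b13 1 of 16 gaps exceeded the array SD in females, that between BXD8 at 1.003 and the next strain, and BXD8 rested on 1 female array.

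B6 males lay within the range of the BXD males for each gene. On their 2 arrays Cyp2b9 read 0.41 and 0.11, Cyp2b13 0.17 and 0.15, and Cyp2a4 4.59 and 5.09. Their means lay above 7, 5 and 12 of the 17 BXD male strains for Cyp2b9, Cyp2b13 and Cyp2a4.

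The shared strain effect over both sexes was tested with 26 values of 13 strains. None of the 3 genes was called, while 1.2% of all features were. The moderated F was 0.89 for Cyp2b9, 1.17 for Cyp2b13 and 1.04 for Cyp2a4 (limma adjusted p = 0.769, 0.661 and 0.709). The residual SD, which holds the strain variation that females and males do not share, was 0.35, 0.28 and 0.53. A strain difference present in 1 sex alone enters that residual, and the test does not address it.

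Across the 17 strains, 9 relations were computed, each with 100000 permutations and a 2-sided p. Female and male levels of the same gene gave no relation that passed the test: Pearson's r was 0.05 for Cyp2b9, 0.26 for Cyp2b13 and -0.16 for Cyp2a4 (permutation p = 0.858, 0.320 and 0.537). Spearman's rho was -0.02, 0.12 and -0.23 (permutation p = 0.944, 0.646 and 0.368). After Benjamini-Hochberg adjustment over the 9 relations no p passed 0.05. Without the 2 strains farthest from the median of the female level, r was -0.27, -0.04 and -0.49.

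The strongest of the 9 relations was that of Cyp2b9 with Cyp2a4 in males. Pearson's r was 0.60 (permutation p = 0.0103, adjusted p = 0.0930) and Spearman's rho 0.56 (permutation p = 0.0205, adjusted p = 0.184), so it did not pass after adjustment. Without BXD15 and BXD31, the 2 strains farthest from the median of Cyp2b9, r was 0.39, so the relation rests in part on them. In females the same genes gave r = 0.11 and rho = 0.12 (permutation p = 0.687 and 0.638). Cyp2b9 and Cyp2b13, with nearly the same promoter window, gave r = 0.46 and rho = 0.23 in females (permutation p = 0.0668 and 0.377) and r = 0.31 and rho = 0.32 in males (permutation p = 0.224 and 0.210). Leaving out BXD8 and BXD9 turned the female value to -0.23. Cyp2b13 with Cyp2a4 gave r = -0.22 in females and 0.31 in males (permutation p = 0.390 and 0.216), and rho = -0.30 and 0.24 (permutation p = 0.243 and 0.349).

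**Figure D3:**
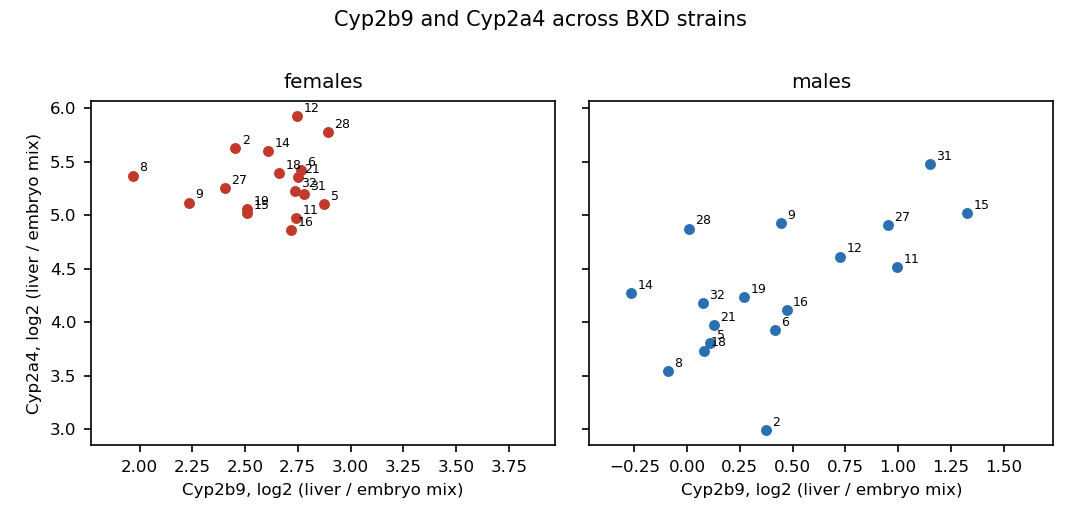
Cyp2a4 (vertical axis) against Cyp2b9 (horizontal axis), both as log2 liver over embryo mix, 1 point per BXD strain with its number, females on the left and males on the right. The female strains form 1 cloud, with r = 0.11, and the male strains spread along both axes, with r = 0.60, BXD15 and BXD31 at the upper right and BXD2 lowest for Cyp2a4.

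Genes with the most similar pattern were sought among 3434 named features, over the 34 strain and sex values after removal of the mean of each sex. These correlations are descriptions, and the points share the embryo mix and, in part, arrays made side by side. For Cyp2b9 the highest were the endothelial lipase gene Lipg (r = 0.64), the metallothionein Mt3 (0.62), the kinase gene Tssk1 (0.61), the importin Ipo4 (0.61) and Idh3g, a subunit of a citric acid cycle dehydrogenase (0.61). For Cyp2b13 they were the microsomal epoxide hydrolase gene Ephx1 (0.73), Cideb (0.65), Nipsnap1 (0.64), the cell cycle inhibitor gene Cdkn2a (0.59) and the P450 gene Cyp2d10 (0.57). For Cyp2a4 they were Adh5, a formaldehyde-oxidising dehydrogenase (0.56), Ktn1 (0.56), Cyp2b9 (0.51), Apip (0.50) and Utf1 (0.50). Cyp2b9 thus ranked 3 in the list of Cyp2a4, and Cyp2a4 ranked 54 in the list of Cyp2b9 (r = 0.51 for the pair), while Cyp2b13 ranked 624 in the list of Cyp2b9 (r = 0.25) and 1931 in that of Cyp2a4 (r = -0.05).

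Against the embryo mix, the 3 genes were tested on the 13 strains measured in both orientations, and a call also needed a log2 ratio of 1 or more in size. Averaged over the sexes all 3 were called higher in liver, as were 4.69% of all features: Cyp2b9 stood at 1.59 (3.01-fold), Cyp2b13 at 1.30 (2.46-fold) and Cyp2a4 at 4.79 (27.6-fold). The limma adjusted p was 2.39e-13, 1.22e-12 and 5.10e-17. The mean over the sexes hides the split for the Cyp2b genes. In females all 3 were called higher (4.22% of all features), at 2.70 or 6.51-fold for Cyp2b9, 2.40 or 5.26-fold for Cyp2b13 and 5.31 or 39.6-fold for Cyp2a4. In males Cyp2a4 alone of the 3 was called higher (6.27% of all features), at 4.27 or 19.3-fold.

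In males Cyp2b9 stood at 0.47 (95% confidence interval 0.23 to 0.71) and Cyp2b13 at 0.20 (0.14 to 0.27), both above 0 (limma adjusted p = 0.00106 and 1.68e-05) but under the required size. The median of all features in that comparison was 0.05. With each array centred on its median, the values were 0.42 and 0.15. The embryo mix is a single RNA, so these errors are those of liver across strains.

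Between the parents, with the ratios turned in the same likely direction, Cyp2b9 and Cyp2b13 were lower in B6 on the arrays labelled female and near 0 on the arrays labelled male. Cyp2b9 read -2.78, -2.92 and -2.52 on the arrays labelled female and 0.14, -0.26 and -0.18 on the arrays labelled male (log2 B6 over D2). Cyp2b13 read -2.44, -2.64 and -2.86 on the arrays labelled female and -0.13, 0.02 and 0.07 on the arrays labelled male. The 2 sets of arrays did not overlap for either gene, and 8.97% of all features likewise had every array labelled female below every array labelled male. On the arrays labelled female the size of the difference, 6.68-fold and 6.25-fold lower in B6 by the array means, stood beside 4.55-fold and 4.45-fold between the sexes of the BXD strains.

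Cyp2a4 was lower in B6 on all 6 direct arrays. It read -1.84, -1.25 and -1.63 on the arrays labelled female and -0.68, -0.54 and -0.79 on the arrays labelled male. The mean was -1.57 ± 0.30 and -0.67 ± 0.13 (SD, n = 3 arrays each), with the 3 arrays of a label holding 2 replicate numbers.

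None of the 3 genes passed the test of B6 against D2 on the 4 values, 1 per labelled sex and replicate number, where 0.178% of all features were called. Replicate 2 was measured with D2 in channel 1 only, so the dye effect does not cancel in its values. Cyp2b9 stood at -1.40 (95% confidence interval -2.78 to -0.03), Cyp2b13 at -1.35 (-2.80 to 0.10) and Cyp2a4 at -1.14 (-1.65 to -0.64), with limma adjusted p = 0.377, 0.382 and 0.164. Without the value labelled female of replicate 1 or 2, Cyp2b9 stood at -0.92 or -1.03 and Cyp2b13 at -0.95 or -0.84. Without the value labelled male of replicate 1 or 2, Cyp2b9 stood at -1.85 or -1.81 and Cyp2b13 at -1.78 or -1.82. With the enriched arrays added the genes stood at -0.85 and -0.80, and none of these values was called. On the arrays labelled male alone the values were -0.12 (-0.47 to 0.23), 0.008 (-0.34 to 0.36) and -0.70 (-1.06 to -0.34), with limma adjusted p = 0.819, 0.991 and 0.514. On the arrays labelled female alone they were -2.69, -2.70 and -1.59, with limma adjusted p = 0.420 for each. Each of these fits rests on 2 values.

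The difference between the labelled sexes, labelled female minus labelled male, was -2.57 for Cyp2b9, -2.71 for Cyp2b13 and -0.89 for Cyp2a4. No feature was called by limma in that comparison (0%), while 1673 had an unadjusted p under 0.05, among them these genes (unadjusted p = 1.04e-04, 8.68e-05 and 0.00328, limma adjusted p = 0.290, 0.290 and 0.547). By size Cyp2b13 and Cyp2b9 ranked 9 and 11 of 21915 features and Cyp2a4 ranked 686. The 7 P450 genes called lower in BXD females were mixed in this comparison, 5 above 0 and 2 below, and none was called. The values were 2.56 for Cyp7b1, an oxysterol hydroxylase, 1.92 for Cyp2d9, another testosterone hydroxylase, 0.67 for Cyp2f2, 0.46 for Cyp2d22, 0.007 for Cyp2d10, -0.03 for Cyp2g1 and -0.997 for Cyp8b1. The other measured P450 genes called higher in BXD females, Cyp4a14, Cyp17a1 and Cyp2c40, stood at -1.12, -0.89 and -0.86 here, and none was called. On the arrays labelled female Cyp7b1 read 2.67, 2.47 and 2.59 and Cyp2d9 2.46, 2.40 and 2.28. The part of the sex of the RNA on these arrays in the values of Cyp2b9, Cyp2b13 and Cyp2a4 was not tested.

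The enriched arrays, 1 per labelled sex and with no replicate, read above 0 for both Cyp2b genes. In RNA labelled female and male, Cyp2b9 read 0.30 and 0.22 and Cyp2b13 0.42 and 0.15. Cyp2a4 read -1.20 in RNA labelled female and 0.86 in RNA labelled male. On these arrays Uty read -0.13 and -0.23 and Eif2s3y 0.11 and 0.20.

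**Figure D4:**
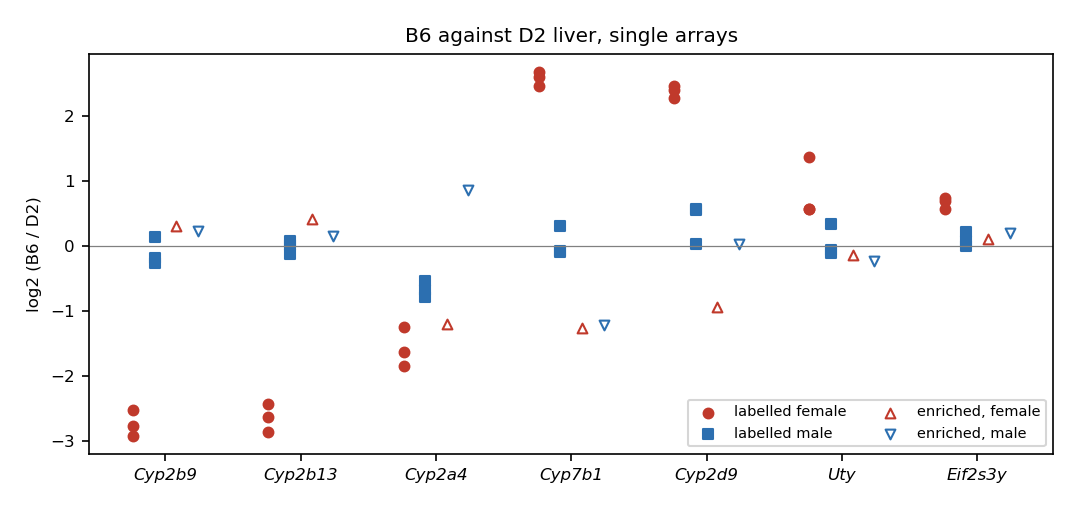
Log2 ratio of B6 over D2 (vertical axis) for the 3 genes, 2 male-biased P450 genes and 2 Y-linked genes (horizontal axis), 1 symbol per array. The 2 P450 genes had the largest difference between the labelled sexes among the 7 male-biased ones, which were mixed. Filled red circles are the 3 arrays labelled female and filled blue squares the 3 labelled male, with open triangles for the enriched arrays: on the arrays labelled female Cyp2b9 and Cyp2b13 lie between -2.92 and -2.44 while Cyp7b1, Cyp2d9, Uty and Eif2s3y lie above 0.

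Of the 3 other measured genes of the Cyp2a to Cyp2t cluster, 0 were called higher and 2 lower in females. Among all features 16.5% were called higher and 17.2% lower. The median of the 3 genes was -0.24, beside 0.02 for all features. Cyp2f2, which oxidises naphthalene, differed by -0.57 and was lower in females in 17 of 17 strains (limma adjusted p = 5.92e-05). Cyp2g1, known from olfactory mucosa, differed by -0.24 (adjusted p = 0.00560), and Cyp2b19, known from skin, by 0.001 (adjusted p = 0.987).

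Of 11 other P450 genes 3 were called higher and 5 lower in females, with a median of -0.12. The shares of all features called were 16.5% higher and 17.2% lower. Cyp2c40, an arachidonic acid hydroxylase, was higher by 0.81, Cyp17a1, of steroid synthesis, by 0.51 and Cyp4a14, of fatty acid hydroxylation, by 0.49. The lower ones were Cyp7b1 (-2.53), Cyp2d9 (-0.93), Cyp2d22 (-0.78), Cyp8b1, of bile acid synthesis (-0.53), and Cyp2d10 (-0.47). Cyp2c29 at -0.12, Cyp2c39 at 0.06 and Cyp2c55 at 0.003 were not called. Against the embryo mix 9 of these 11 genes were called higher in liver, beside 4.69% of all features. Their median was 2.13, beside 0.07 for all features.

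**Figure D5:**
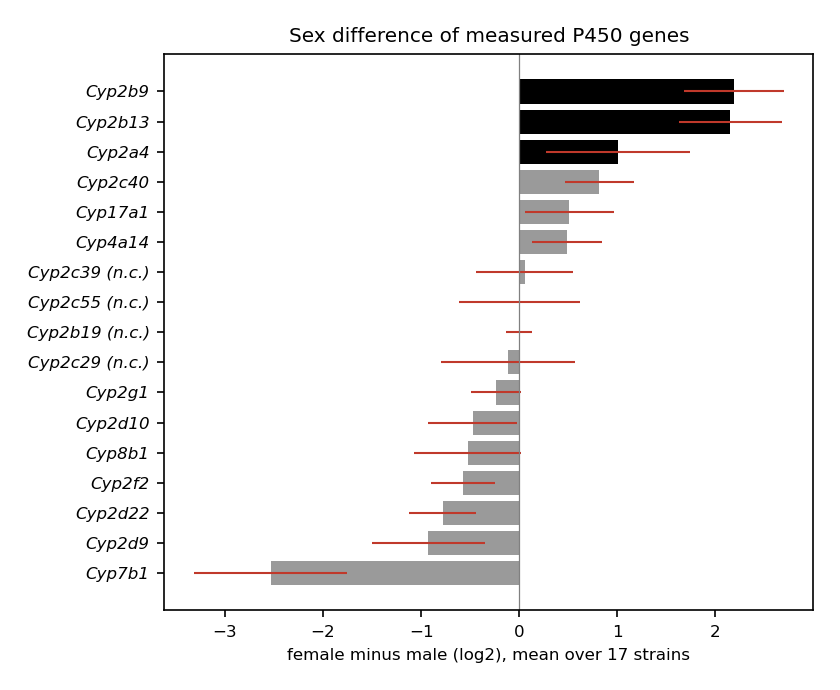
Mean female minus male log2 difference over 17 BXD strains (horizontal axis) for the 17 measured P450 genes of the lists (rows); black bars are Cyp2b9, Cyp2b13 and Cyp2a4, red lines 1 SD of the strain differences, and n.c. marks genes not called. Cyp2b9 (2.19) and Cyp2b13 (2.15) stand at the female end and Cyp7b1 (-2.53) at the male end.

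Among 12 measured regulators of sex-biased or drug-induced P450 genes, 1 was called higher and 2 lower in females, with a median of 0.06. Over all features 16.5% were called higher in females and 17.2% lower. Socs2, a feedback inhibitor of growth hormone signalling, was higher by 0.38 (limma adjusted p = 0.0304). Stat5a was lower by -0.32 (adjusted p = 0.00361), and Onecut1, a liver transcription factor, by -0.36 (adjusted p = 0.0483). Stat5b at 0.05, Ghr at -0.01, Jak2 at 0.15 and Cux2, known as a female-biased repressor in mouse liver, at 0.14 were not called, nor was Nr1i3, the receptor that drives drug induction of Cyp2b genes, at 0.13.

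The counts for markers of other cells are to be read beside the 33.7% of all features called between the sexes. Of 4 macrophage markers 2 were called higher in females, of 3 endothelial markers 1 higher and 2 lower, of 4 stellate and fibroblast markers 2 higher and of 3 lymphocyte markers 2 higher. Of 4 red cell markers 1 was called lower, Rhag at -0.66, of 2 pancreas markers 1 lower and of 2 kidney, fat and muscle markers 1 higher, while the bile duct marker Epcam was not called. The mean of the 4 macrophage markers lay between 0.03 and 0.85 in female strains and between -0.10 and 0.73 in male strains. The mean of the 3 endothelial markers lay between -0.23 and 0.26 in females and between -0.22 and 0.23 in males, and that of the 3 lymphocyte markers between 0.02 and 0.38 in females and between -0.12 and 0.10 in males. Of 9 hepatocyte markers 2 were called higher in females and 0 lower, with a median difference of 0.08. Their part in the sex differences of the 3 genes was not tested.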

How the data were processed

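The deposited values were 1 log ratio per probe and array, for 21936 probes on 82 arrays. How the authors normalized these deposited log10 ratios, and the base itself, were not given in the sources used here. Ratios were read as log10, because 94 values lay exactly at a bound of 2 (a 100-fold ratio each way), and converted to log2; read as log2, every log2 value here would be smaller by 1 constant factor. Values were read as channel 2 over channel 1 and every array was turned to liver over embryo mix or B6 over D2. Probes of 1 symbol were averaged, which left 21915 features. Of the probes 3290 were named by the platform annotation, 4 had several symbols, 170 were named through their accession and 18476 remained unnamed. No value of the 3 genes lay at the bound or at 0. Array medians lay between -0.08 and 0.12. An array titled as a dye swap, whose channels say otherwise, entered by its channels (r = 0.85 with the other array of that kind). No value column was left unmatched to a sample (0 columns).

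Replicate arrays were averaged per strain, sex and orientation, then across orientations. Of 17 strains, 13 had both orientations in both sexes; BXD8, BXD9, BXD14 and BXD27 had 1. All tests ran in limma 3.58.1 under R 4.3.3 (lmFit with eBayes, Benjamini-Hochberg adjustment at 0.05 over all 21915 features), and the fits were tested on simulated data. The sexes were compared on 34 values, each strain being a block, liver with the mix on 13 strain means, strains by a moderated F on 26 values with sex as a term, and B6 with D2 on 4 values. With arrays, their number limits the precision. Relations across strains used numpy 2.4.6 with 100000 permutations.

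The genes and lists were chosen with earlier results of these data known. Besides the 3 genes, named genes were every measured member of the lists of P450 genes, regulators and cell markers, and for each gene the 5 named features with the highest correlation, clone names passed over. Alternatives covered centring, quantile normalization, orientation, strain sets, each strain or value left out, replicate 1 only, a replicate block, the deposition stretch, the log base and, added after seeing the data, the arrays of each labelled sex alone, within-stretch values and 1 value per replicate number.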

Additional observations from a re-analysis of the deposited data

How the results depend on the processing

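Of 372 values of the 3 genes under the alternatives, 364 kept their direction and their side of the threshold and 8 did not. In the 4 strains with 1 orientation the sex differences were 2.04, 2.02 and 0.92 for Cyp2b9, Cyp2b13 and Cyp2a4 and none was called by limma, where 0 features were called and 3276 had an unadjusted p under 0.05; this fit has fewer strains. On the arrays labelled male alone Cyp2b13 read 0.0078 for B6 over D2. With the ratios read as log2, the liver values of Cyp2b9 and Cyp2b13 were 0.48 and 0.39 over both sexes and 0.81 and 0.72 in females, all under the required size. Calls then numbered 205 over both sexes, 198 in females and 222 in males. Leaving out 1 strain at a time, the sex difference was 2.14 to 2.25 for Cyp2b9, 2.10 to 2.23 for Cyp2b13 and 0.91 to 1.09 for Cyp2a4, always called. Features called between the sexes numbered 4695 with the deposition stretch as a term. Strain calls numbered 164 with liver in channel 1, 101 with the embryo mix in channel 1, 5589 with all strains and 139 to 278 without 1 strain, lowest without BXD15. In the 13 strains with both orientations the relation of female to male Cyp2b9 was r = -0.26, against 0.05 with all strains.

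Calls of B6 against D2 numbered 39, against 25 in replicate 1, 683 with D2 in channel 1, 274 with a dye term and 510 with the enriched arrays added. Limma called 0 with trend and robust settings and 0 on the arrays labelled female or male alone, where 746, 2527 and 1261 features had an unadjusted p under 0.05. Without 1 value at a time 0 to 29 were called: 3 without the labelled female replicate 1, 29 without female replicate 2, 0 without male replicate 1 (3016 at an unadjusted p under 0.05) and 2 without male replicate 2. With the replicate block 9 were called, and the block called none of the 3 genes (Cyp2b9 -1.40, Cyp2b13 -1.35 and Cyp2a4 -1.14, limma adjusted p = 0.308, 0.344 and 0.104). Values with the same number deviated together with r = 0.32 across features, but nothing in the labels says that a number marks a shared animal or day. Replicate 2 had D2 in channel 1 only under both labels, so replicate number and dye effect cannot be told apart here. Between the BXD sexes the replicate block gave 2.18, 2.13 and 1.03, all called. The cause of these shifts was not tested. Values of 1 probe per gene, 1 or 2 arrays for most strains and sexes, and the absence of intensities limit all levels.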
